A study of Mus musculus with 28 samples.

Results

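Thy1+ cells that were sorted late in reprogramming, on days 9 and 12 of induction, were compared with the fibroblasts from which the cultures were started. The members were picked out by the labels of the arrays, with no measured value in the rule, as the arrays of Thy1+ cells of days 9 and 12, both named M2 and taken as 1 group, and the 2 arrays of mouse embryonic fibroblasts (MEF), named M2 and M3. These 4 arrays belong to a table of 24 within a series of 28. The series follows the making of induced pluripotent stem (iPS) cells from fibroblasts over time, with cells separated by surface markers. The MEF came from E13.5 embryos of C57BL6/129 strain that carried the OKSM cassette (the reprogramming factors Oct4, Klf4, Sox2 and Myc) under doxycycline control and the Rosa26-M2rtTA transactivator. Embryos had 1 or 2 copies of these alleles, and the labels do not say which array had which. The MEF arrays are labelled day 0, positive for Thy1 and negative for SSEA1 and GFP, so they carry the cassette as well. The late Thy1+ cells had the same markers after 9 or 12 days in embryonic stem cell medium with serum, LIF and doxycycline, and were collected by flow cytometry. Doxycycline and time in culture differ together between the groups and cannot be told apart, nor can any difference in medium, since that of the MEF is not given for each array. The labels do not tie the arrays to different embryos or cultures. Every p-value therefore reflects array-to-array spread, which may be technical, and the number of arrays limits the precision.

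Thy1 is a surface glycoprotein of fibroblasts, and SSEA1 is a carbohydrate antigen of mouse pluripotent cells. In reprogramming cultures most cells that go on to form iPS cells lose Thy1 and gain SSEA1, so cells still positive for Thy1 at late times are generally regarded as refractory to reprogramming. Reprogramming is known to begin with a rise in proliferation and with the replacement of mesenchymal by epithelial genes, while the pluripotency network is engaged later.

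The transcripts of the sorted cells were first set against their label. Thy1 read 11.79 and 11.80 (log2 signal) in MEF and 11.55 and 11.44 in late Thy1+ cells of days 9 and 12, a difference of -0.30 (SE 0.25, adjusted p = 0.453). Of 8 defining fibroblast markers that were measured, 0 were higher and 1 was lower in late Thy1+ cells, beside 4.61% and 4.56% of all genes. The summed linear signal of the 8 markers was 36361 and 38570 in MEF against 28786 and 31392. Vim, an intermediate filament of mesenchymal cells, read 13.10 and 13.22 in MEF against 13.12 and 13.04. Markers of other cell types were mostly dim. The 5 pluripotent markers summed to 144 and 142 in MEF against 174 and 349, and the 4 epithelial markers to 119 and 111 against 183 and 327, with the higher late value on day 12 in both. The macrophage markers summed to 101 and 103 against 127 and 123. The 3 neural markers summed to 769 and 762 against 1736 and 916, of which Stmn2 was higher and Tubb3 lower in late Thy1+ cells. In sorted bulk cells, a lower signal from fewer cells of a type and from less RNA per cell cannot be told apart.

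Array medians lay between 6.921 and 6.979 on the 4 arrays. The 3′ to 5′ signal difference of Gapdh, which grows with RNA degradation, was 0.867 and 0.94 in MEF and 0.98 and 1.11 in late Thy1+ cells. The signal of 18S ribosomal RNA was 10.169 on the day 9 array against 11.998 to 12.058 on the other 3 of these arrays. Among all 24 arrays the M2 array of day 6 Thy1+ cells stood apart, with a Gapdh difference of 1.78, an Actb difference of 1.487 and 18S at 9.38. It adds to the spread used in every test, and values that rest on it are given with and without it. No array was left out of the main comparison, and the part of these differences in the results was not tested.

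Late Thy1+ cells differed from MEF in 1082 of 11807 genes, or 9.16%, at an adjusted p under 0.05 and at least 2-fold. The calls were evenly split, with 544 higher (4.61%) and 538 lower (4.56%), and the median over all genes was 0.04. Late and MEF arrays were fully separated in all 1082, as they were in 66.3% of all genes. A difference of at least 16-fold was reached by 42 genes, of which 30 were higher and 12 were lower in late Thy1+ cells.

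**Figure D1:**
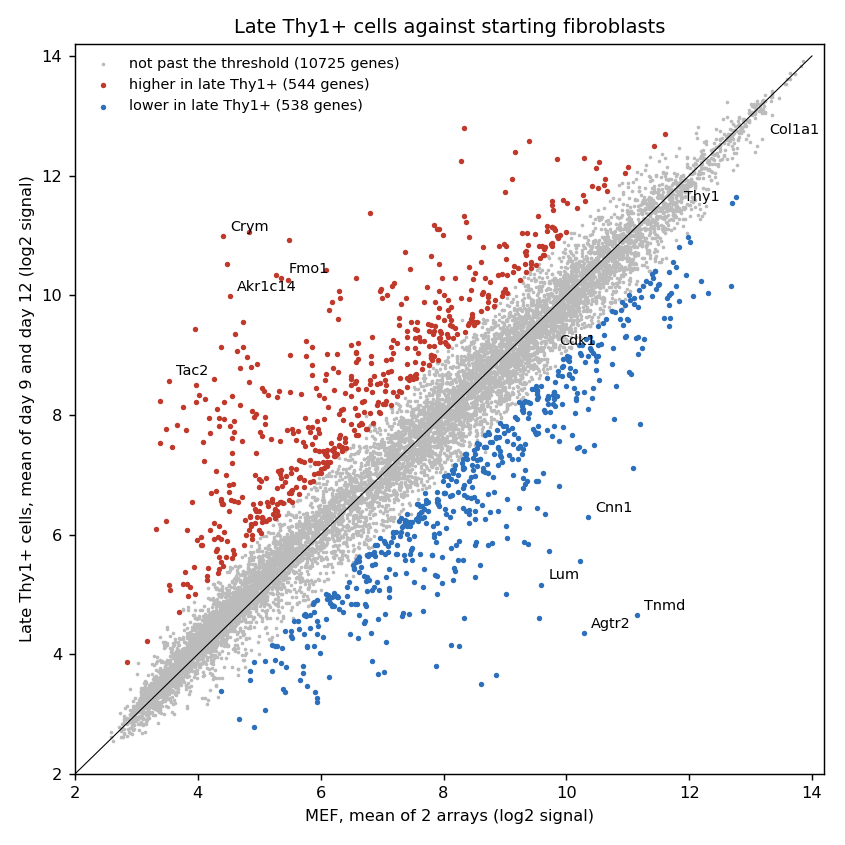
Each point is 1 of 11807 genes, with its mean log2 signal in 2 MEF arrays (horizontal axis) and in the 2 late Thy1+ arrays (vertical axis); the line marks equal signal. The 544 genes higher (red) and 538 lower (blue) in late Thy1+ cells lie on both sides of the line, and Thy1 and Col1a1 lie close to it.

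The genes with the largest gains were dim in MEF, with Ifitm1 the brightest of them there at 6.90 and 6.71, and ranged from enzymes of foreign compound and steroid metabolism to surface and signalling proteins. Crym, which encodes a thyroid hormone binding protein, read 4.14 and 4.68 in MEF and 11.54 and 10.43 in late Thy1+ cells. It was 95.4-fold higher (log2 6.58, SE 0.28, adjusted p = 2.34e-10). Aldh3a1, an aldehyde dehydrogenase, read 5.01 and 4.64 against 11.70 and 10.42, a 75.3-fold difference. In both genes the day 9 array was the higher of the late arrays, and no late array came near a MEF array.

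Other enzymes followed. Akr1c14, an aldo-keto reductase of steroids, read 4.63 and 4.40 in MEF against 10.04 and 9.92 (44.1-fold, adjusted p = 8.1e-09). Fmo1, a flavin-containing monooxygenase, read 5.26 and 5.46 against 10.12 and 10.45 (30.3-fold, adjusted p = 2.16e-10). Late SSEA1+ cells stood 0.97 above MEF for Fmo1 on the log2 scale, and late Thy1+ cells stood 3.95 above late SSEA1+ cells, a difference that was called. Of 17 measured genes of the Nrf2 and xenobiotic list, 5 were higher (Aldh3a1, Gsta4, Aldh1a1, Ephx1 and Mgst1) and 2 were lower (Nqo1 and Slc7a11). The median of the list was 0.36, and over all genes 4.61% were higher and 4.56% lower. Its highest member stood 6.23 above MEF in late Thy1+ cells, 6.86 in day 3 Thy1+ cells and 6.83 in late SSEA1+ cells. Both lower calls were lost without the MEF M2 array or without the day 12 array, and that of Ephx1 without the MEF M3 or the day 9 array. The other probe set of Mgst1 differed by -0.10.

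Surface and signalling genes made up most of the remaining names. Fgf4, a growth factor of embryonic stem cells, read 4.27 and 4.69 in MEF against 10.94 and 10.12 (66.5-fold, adjusted p = 4.6e-10). Its other probe sets differed by 0.19 to 5.65, and 1 of them did not show the gain. Podxl, a sialomucin of epithelial and stem cells, read 5.52 and 5.44 against 11.11 and 10.74 (43.6-fold), and its other probe set differed by 0.45. Ceacam2, an adhesion protein of the carcinoembryonic antigen family, was 45.0-fold higher, with other probe sets at 0.22 to 3.52.

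The G protein subunits Gna14 and Gng13 were 33.6-fold and 28.1-fold higher. Tac2, the precursor of neurokinin B, read 3.53 and 3.54 in MEF against 8.36 and 8.78 (32.8-fold). The last of the 15 were the ion pump Atp12a, Shisa2, which restrains the maturation of Wnt and FGF receptors, the cGMP phosphodiesterase Pde9a, the desmosomal protein Perp and the interferon-inducible membrane protein Ifitm1, which were 23.8-fold to 28.9-fold higher. Large gains were present in other fractions too. The highest member of the pluripotency list stood at 6.06 late (Fgf4), 5.22 in day 3 Thy1+ and 6.5 in late SSEA1+ cells. For the p53 and senescence list these values were 4.76 (Perp), 5.34 and 6.91, and for the interferon list 4.57 (Ifitm1), 3.44 and 3.39. The highest member may differ between fractions.

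The genes with the largest losses encode matrix and muscle proteins, receptors, enzymes and secreted regulators. Tnmd, tenomodulin, a membrane protein of tendon, read 11.11 and 11.19 in MEF against 4.72 and 4.57, a 90.8-fold loss (log2 -6.50, SE 0.20, adjusted p = 1.14e-11). Agtr2, a receptor of angiotensin, read 10.21 and 10.37 against 4.32 and 4.39 (61.3-fold lower, adjusted p = 2.55e-12). These late values lay below the 25th percentile of their arrays, 5.04 on day 9 and 5.12 on day 12. The size of the loss is therefore limited by the dim end of the scale. Losses of this size were present in other fractions too. The lowest member of the cartilage, bone and tendon list stood at -6.50 late (Tnmd), -6.55 in day 3 Thy1+ and -6.99 in late SSEA1+ cells. For the growth factor list these values were -5.94 (Agtr2), -6.77 and -6.79.

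Lum, a keratan sulfate proteoglycan of collagen matrix, read 9.61 and 9.58 against 5.23 and 5.10 (21.6-fold lower). Cnn1, the smooth muscle protein calponin, read 10.45 and 10.25 against 6.35 and 6.23 (16.7-fold lower). Myh11, smooth muscle myosin, was 16.1-fold lower by its brighter probe set and differed by -0.21 by the other. Both late arrays were far below both MEF arrays in each of these genes.

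The other genes of this group were the cGMP-dependent kinase Prkg2, the granzyme Gzme, the Wnt enhancer Rspo2, the gap junction protein Gjb2, the netrin receptor Unc5c, the protease inhibitor Tfpi2, the BMP antagonist Grem1, the metalloprotease Adam12, the potassium channel Kcnj8 and the prostaglandin receptor Ptgfr. They were 13.3-fold to 36.7-fold lower. Adam12 had the widest late spread of them, at 7.45 and 6.77 against 11.04 and 11.11 in MEF.

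**Figure D2:**
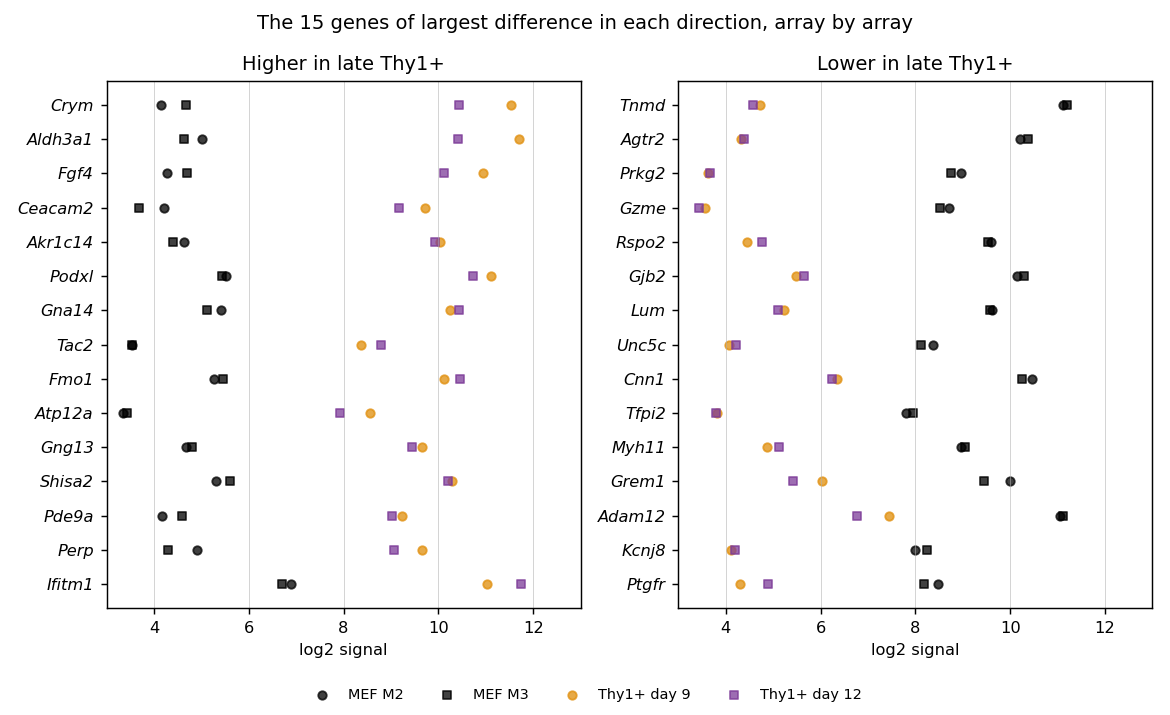
Log2 signal (horizontal axis) of the 15 genes that differed most in either direction (rows), 1 point per array: black circles and squares are MEF M2 and M3, orange circles Thy1+ day 9 and purple squares Thy1+ day 12. In every row the late arrays lie apart from the MEF arrays, from Crym and Tnmd at the top to Ifitm1 and Ptgfr at the bottom.

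Genes of fibroblast identity were retained in part. Collagen fibrils, proteoglycans and crosslinking enzymes form the matrix that fibroblasts secrete. Of 16 collagen genes, 1 was higher (Col15a1) and 4 were lower (Col5a3, Col6a2, Col14a1 and Col18a1), beside 4.61% and 4.56% of all genes. The collagen median was -0.60, and the other probe set of Col5a3 differed by -0.14. Col1a1, the main fibrillar collagen, read 13.18 and 13.21 in MEF against 12.64 and 12.58 (log2 -0.59, SE 0.28, adjusted p = 0.17), and Col3a1 differed by -0.28. Col14a1, a collagen of fibril surfaces, read 6.92 and 6.76 against 3.95 and 3.82 (log2 -2.95, adjusted p = 7.4e-09). The call of Col15a1 was lost without the day 9 array.

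Among 25 proteoglycans and other matrix proteins, 2 were higher and 7 were lower, beside 4.61% and 4.56% of all genes. The median of the list was -0.44. The lower ones were Lum, Aspn, Vcan, Postn, Mfap4, Loxl2 and Has2. Postn, periostin, read 12.62 and 12.74 in MEF against 10.38 and 9.92 (log2 -2.53, SE 0.43, adjusted p = 0.000498). The higher ones were the small leucine-rich proteoglycans Prelp, at 9.09 and 9.15 against 12.01 and 11.89, and Fmod, at 9.71 and 9.82 against 11.51 and 11.64. Proteoglycans of this family therefore stood on both sides of MEF, as Lum was lower. Dcn and Ogn differed by -0.13 and 0.32, did not pass the test and changed sign when 1 late array was left out.

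In the contractile list the calls were lower only, with 0 of 15 genes higher and 5 lower (Cnn1, Myh11, Tpm2, Lmod1 and Des). Over all genes 4.61% were higher and 4.56% lower. Acta2, smooth muscle actin, read 13.16 and 13.20 in MEF against 13.08 and 13.03 (log2 -0.13, adjusted p = 0.803). Averaging all probe sets of a gene reduced the 5 lower genes to 3. The other probe set of Des differed by -0.07, and those of Tpm2 by -1.11 to 0.15. Of 24 mesenchymal transcription factors, 0 were higher and 8 were lower, namely Snai1, Snai2, Twist2, Zeb2, Osr1, Meox1, Foxc2 and Ebf2. Snai2, a repressor of epithelial genes, read 10.09 and 10.27 in MEF against 7.66 and 7.23 (log2 -2.73, SE 0.24, adjusted p = 5.87e-07). Foxc2, a forkhead factor of mesenchyme, was lower by more, at -3.53. Relatives of these factors did not pass the test, with Twist1 at 0.03, Zeb1 at 0.28 and Prrx1 at -0.12.

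Signals to neighbouring cells shifted in both directions. Of 18 genes of TGF-beta signalling, 3 were higher (Tgfbi, Id1 and Bmp4) and 5 lower (Tgfb1, Ltbp1, Ltbp2, Inhba and Grem1). Bmp4 read 7.91 and 7.99 in MEF against 9.15 and 9.28 (log2 1.26, adjusted p = 0.00138), while its antagonist Grem1 read 10.00 and 9.44 against 6.02 and 5.42. Of 20 growth factor genes 2 were higher and 6 lower, and of 22 Wnt and BMP genes 2 were higher and 5 lower. Over all genes 4.61% were higher and 4.56% lower. The Wnt inhibitor Frzb read 7.10 and 6.99 against 4.47 and 4.86 (log2 -2.38, adjusted p = 1.39e-07). Without the day 9 array 2 of the Wnt and BMP genes were lower.

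Genes of mitosis held the largest share of calls, with 0 of 24 higher and 15 lower and a median of -1.16. Over all genes 4.61% were higher and 4.56% lower. The proteins of this list build the spindle, control its checkpoint and drive exit from mitosis. Bub1, a spindle checkpoint kinase, read 7.91 and 7.80 in MEF against 6.65 and 5.38 on days 9 and 12 (log2 -1.84, SE 0.28, adjusted p = 0.000181). Its other probe set, with means of 3.39 in MEF and 3.55 in late Thy1+ cells, differed by 0.16, and the call was lost when probe sets were averaged. Cenpe, a kinesin of the kinetochore, read 6.69 and 6.75 against 5.30 and 4.39 (log2 -1.87, adjusted p = 0.000324), and Ccnb2, cyclin B2, read 8.30 and 7.96 against 7.42 and 5.90 (log2 -1.47, adjusted p = 0.0027). In Bub1, Cenpe and Ccnb2 the day 12 array was the lower of the late arrays. Top2a and Kif23, also called lower, differed by 0.06 and 0.11 by their other probe sets.

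The count depended on the day 12 array. Without it 2 genes were lower (Bub1 and Cenpe), without the day 9 array 22 were, and without the MEF M2 array 9 were. The median was -0.60 on day 9 and -1.62 on day 12. In a fit of these groups alone 8 were lower. Of 27 genes of DNA replication, 0 were higher and 3 were lower (Cdc6, Ccne2 and Uhrf1), with a median of -0.35, and 0 were lower without the day 12 array. Promoters are shown for 3 mitotic genes, because CCAAT and CHR elements are known in promoters of such genes. These genes had the largest differences among lower members that matched a promoter, after genes of a set-aside chromosome were passed over.

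The promoters of Cenpe (chr3:135212313-135212612, plus strand), Bub1 (chr2:127831810-127832109, minus strand) and Ccnb2 (chr9:70421505-70421804, minus strand) are RefSeq sequences of the build GRCm38.p6, from 250 bases before to 50 bases after the start of the gene. Capitals mark matches to CCAAT, the CCAAT box, and TTTGAA, the cell cycle homology region (CHR), on either strand.
Cenpe: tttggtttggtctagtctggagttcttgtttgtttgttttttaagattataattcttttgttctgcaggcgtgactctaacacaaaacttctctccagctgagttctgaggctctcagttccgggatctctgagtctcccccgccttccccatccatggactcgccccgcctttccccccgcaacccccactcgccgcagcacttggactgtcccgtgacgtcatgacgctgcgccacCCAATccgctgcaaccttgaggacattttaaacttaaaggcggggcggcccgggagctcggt
Bub1: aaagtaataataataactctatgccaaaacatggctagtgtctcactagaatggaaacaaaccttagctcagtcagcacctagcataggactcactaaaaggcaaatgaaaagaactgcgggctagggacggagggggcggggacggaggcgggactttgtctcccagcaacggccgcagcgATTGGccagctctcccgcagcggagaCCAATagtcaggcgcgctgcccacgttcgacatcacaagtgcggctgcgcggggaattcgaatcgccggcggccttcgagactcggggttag
Ccnb2: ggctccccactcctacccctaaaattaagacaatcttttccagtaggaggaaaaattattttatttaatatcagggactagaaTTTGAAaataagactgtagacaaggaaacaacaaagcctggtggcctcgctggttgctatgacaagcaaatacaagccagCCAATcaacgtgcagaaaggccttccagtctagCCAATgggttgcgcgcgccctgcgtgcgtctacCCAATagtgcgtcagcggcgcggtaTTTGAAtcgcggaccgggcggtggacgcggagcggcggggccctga
Of the 15 lower mitotic genes, 12 matched the promoter table, with 13 promoters among them. CCAAT was found in 84.6% of the 13 and in 37.4% of all 32851 promoters of the same length. TTTGAA was found in 69.2% of the 13 and in 17.9% of all. Ccnb2 held 3 CCAAT boxes and 2 CHR matches, Bub1 held 2 CCAAT boxes and Cenpe 1. The letters TATAAA of the TATA box were in 0 of these 13 promoters and in 13.6% of all. A match describes letters only, and does not show that a factor binds there. No share was taken for mitotic genes that were not called, so these shares cannot be tied to the loss.

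The list of unfolded protein and amino acid stress genes came second, with 0 of 20 higher and 11 lower and a median of -1.05. Over all genes 4.61% were higher and 4.56% lower. The lower genes were the ATF4 targets Ddit3, Trib3, Chac1, Asns, Psat1, Phgdh, Shmt2, Slc7a5, Ddit4 and Atf5, and the chaperone Pdia4. Chac1, which degrades glutathione, read 8.95 and 9.11 in MEF against 5.83 and 6.05 (log2 -3.09, SE 0.33, adjusted p = 5.48e-06). Trib3, a pseudokinase induced by stress, read 8.75 and 9.02 against 6.48 and 6.32 (log2 -2.48, adjusted p = 4.73e-06). Both late arrays lay more than 2-fold below both MEF arrays in these genes.

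Phgdh and Psat1, which make serine, read 9.76 and 9.76 against 7.86 and 7.42, and 12.23 and 12.17 against 10.73 and 9.73. The chaperones of the endoplasmic reticulum Hspa5, Hsp90b1 and Calr differed by -0.14, -0.17 and -0.04 and did not pass the test (Calr changed sign between settings), nor did Atf4 itself at -0.49. Pdia4 was the exception and varied between late arrays, at 7.97 and 10.08 against 11.21 and 11.12, with a call that was lost without the day 9 array. The count of lower genes ranged from 8 to 11 when 1 array was left out.

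The promoters of Chac1 (chr2:119350992-119351291, plus strand), Trib3 (chr2:152344011-152344310, minus strand) and Pdia4 (chr6:47813463-47813762, minus strand), from the same build and window, were picked from the lower genes of the list by the same rule. Capitals mark matches to the CCAAT box, the TATA box (TATAAA) and the CARE element (TGATGNAA) on either strand. ATF4 and its partners bind the CARE element. The CARE element was chosen after the values were seen. No share was taken for members of this list that were not called.
Chac1: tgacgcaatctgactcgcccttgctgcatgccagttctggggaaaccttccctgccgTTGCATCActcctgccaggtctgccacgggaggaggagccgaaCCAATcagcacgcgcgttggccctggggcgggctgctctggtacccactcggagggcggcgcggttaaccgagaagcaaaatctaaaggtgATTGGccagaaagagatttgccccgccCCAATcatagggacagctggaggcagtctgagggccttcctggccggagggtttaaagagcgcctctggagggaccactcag
Trib3: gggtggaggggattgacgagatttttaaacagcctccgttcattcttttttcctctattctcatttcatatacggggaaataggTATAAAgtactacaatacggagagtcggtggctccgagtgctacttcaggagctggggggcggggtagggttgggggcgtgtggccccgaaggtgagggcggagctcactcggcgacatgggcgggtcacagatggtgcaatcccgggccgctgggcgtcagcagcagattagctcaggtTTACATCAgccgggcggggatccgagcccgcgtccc
Pdia4: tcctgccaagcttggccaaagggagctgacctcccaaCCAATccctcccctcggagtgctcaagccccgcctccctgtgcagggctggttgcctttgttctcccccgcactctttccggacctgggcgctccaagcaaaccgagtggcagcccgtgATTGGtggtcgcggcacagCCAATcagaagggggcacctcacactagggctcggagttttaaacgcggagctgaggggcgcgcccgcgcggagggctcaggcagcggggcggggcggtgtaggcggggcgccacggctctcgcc
Of the 11 lower genes 10 matched the table, with 12 promoters. TGATGNAA was found in 25% of the 12, in 3.97% of all promoters and in 0 of the 13 mitotic ones. CCAAT was found in 58.3% of the 12 and TTTGAA in 0. TATAAA was found in 16.7% of the 12 and in 13.6% of all. Chac1 held 1 CARE match and 3 CCAAT boxes and Pdia4 3 CCAAT boxes. Trib3 held 1 CARE match and a match to the letters TATAAA, at -166 from the start of the gene.

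**Figure D3:**
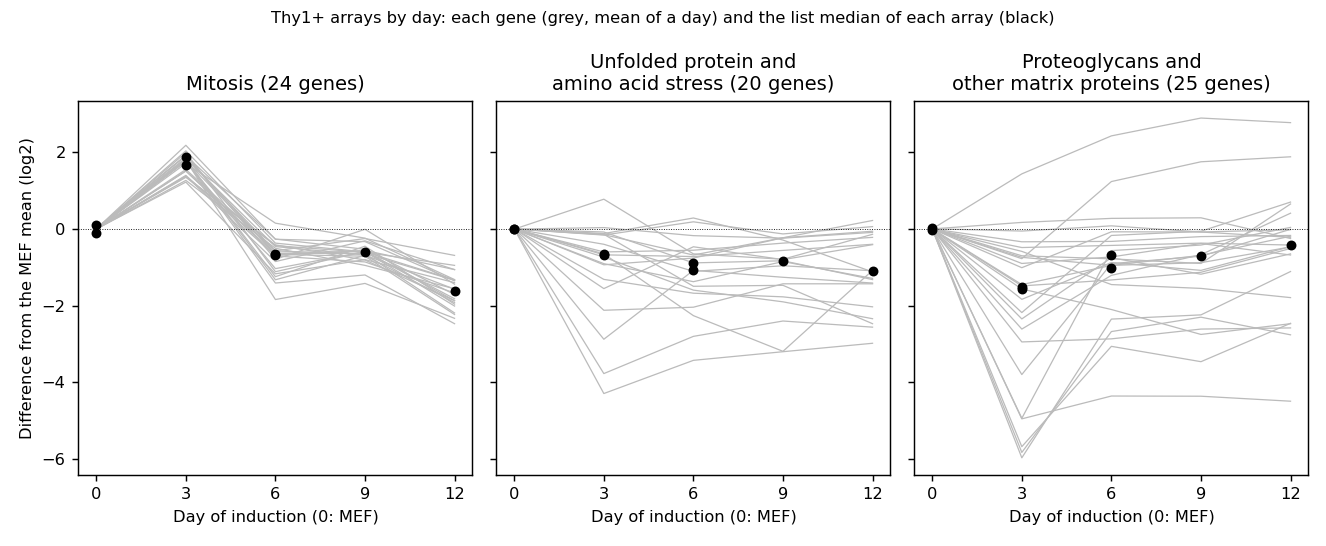
Difference from the MEF mean (vertical axis, log2) on each day of induction (horizontal axis; day 0 is MEF) in Thy1+ arrays, for 24 mitotic genes, 20 unfolded protein and amino acid stress genes and 25 matrix proteins. Grey lines are genes, as means of a day, and black points the list median of each array, with 1 of the 2 arrays of day 6 the one that stood apart in its controls. The mitotic median is above MEF on day 3 and below it on days 9 and 12, at -0.60 and -1.62, while the stress list stays below MEF on every later day.

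Epithelial genes were higher in part. Of 28 measured, 7 were higher (Cdh1, Epcam, Dsp, Perp, Spint1, Spint2 and Podxl) and 1 was lower (Cdh3), with a median of 0.52. Over all genes 4.61% were higher and 4.56% lower. The other probe sets of Dsp differed by 0.21 to 1.26. Cdh1, E-cadherin, which joins epithelial cells, read 4.16 and 3.50 in MEF against 5.71 and 6.43 (log2 2.24, SE 0.27, adjusted p = 1.56e-05). Epcam, an epithelial adhesion protein, read 4.84 and 5.14 against 6.11 and 6.68 (log2 1.40, adjusted p = 0.00094). Late SSEA1+ cells stood 5.97 and 5.23 above MEF for these genes, and the late fractions differed from each other in both. The keratins Krt8 and Krt18 differed from MEF by 0.40 and -0.24, did not pass the test and changed sign without 1 of the late arrays. The call of Spint1 was lost without the MEF M3 or the day 12 array.

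Among 29 pluripotency genes, 5 were higher (Fgf4, Fbxo15, Tfap2c, Sall4 and Tfcp2l1) and 1 was lower (Klf2), with a median of 0.56. Over all genes 4.61% were higher and 4.56% lower. The other probe set of Sall4 differed by 0.46. Fbxo15, a gene of early stem cells whose activation precedes that of Nanog, read 3.74 and 3.57 in MEF against 8.30 and 7.36 (log2 4.18, SE 0.37, adjusted p = 7.94e-07). Nanog, a core factor of the network, read 4.88 and 5.05 against 5.37 and 6.40 (log2 0.92, adjusted p = 0.15). Without the day 9 array 8 genes were higher. Sall4 read 5.51 on day 9 and 7.51 on day 12, and its call was lost without the day 12 array or either MEF array.

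The factor genes may be read from the cassette as well as from their own loci. Myc read 7.35 and 7.15 in MEF against 9.33 and 9.07 (log2 1.95, SE 0.20, adjusted p = 2.82e-06). Pou5f1, the gene of Oct4, differed by 0.66, Sox2 by 0.83 and Klf4 by 0.02. None of these passed the test, and Klf4 changed sign between settings. Sox2 read 3.25 on day 9 and 4.46 on day 12 against 3.05 and 2.98 in MEF. The probe sets of these genes read the 3′ end, and whether they detect the cassette transcript was not tested.

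Inflammatory genes moved in both directions, with 7 of 29 higher and 4 lower and a median of 0.17. Over all genes 4.61% were higher and 4.56% lower. Icam1, an adhesion molecule for leukocytes, read 5.74 and 5.95 in MEF against 8.73 and 8.60 (log2 2.82, SE 0.13, adjusted p = 6.01e-10). Lcn2, an iron-binding acute phase protein, read 4.31 and 4.05 against 7.50 and 8.38, and the chemokine Ccl8 read 4.18 and 4.22 against 7.15 and 8.23. Ptgs2, the inducible prostaglandin synthase, went the other way, from 11.13 and 11.27 to 7.77 and 7.93 (log2 -3.35, adjusted p = 5.01e-05), as did Il6, from 7.12 and 7.10 to 4.71 and 5.49. The other calls were Ccl11, Cxcl14, Il33 and Nfkbia, which were higher, and Ccl7 and Cxcl5, which were lower. The count of lower genes was 2 to 3 when 1 array was left out.

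Inhibitors of cyclin-dependent kinases lay on both sides of MEF and did not pass the threshold, with Cdkn2a at 0.47, Cdkn1a at 0.35, Cdkn1b at 0.12, Cdkn2b at -0.36 and Cdkn2c at -0.90, which missed the 2-fold minimum (adjusted p = 0.000611). Of 19 genes of the p53 and senescence list 4 were higher (Ccnd1, Igfbp3, Perp and Rb1) and 1 was lower (Plk2). Over all genes 4.61% were higher and 4.56% lower. Ccnd1, cyclin D1, read 10.63 and 10.40 in MEF against 12.11 and 11.49 (log2 1.29, adjusted p = 0.00172), a call that was lost without the day 9 array.

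Several lists held no call, at a background of 9.16%. They were the 3 genes of the sorting markers, 28 genes of oxidative phosphorylation, 16 of ribosome biogenesis, 12 germline genes, 11 genes of antigen presentation, 7 erythroid genes and 10 housekeeping genes. Of 22 macrophage genes 1 was higher (Laptm5), and of 27 Hox genes 2 were lower (Hoxa11 and Hoxd10), of which 0 were without the day 9 array and 1 without the MEF M2 array. Of 16 endothelial genes Tek and Plvap were higher and Flt1 lower, a call that was lost without the day 9 array or either MEF array, while the defining endothelial markers summed to 74 and 69 in MEF against 77 and 83.

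The remaining lists held between 1 and 7 calls, where 9.16% of all genes were called. Shares were 5.88% in the lysosome, 5% in immediate early, 10% in interferon, 13.3% in imprinted and 12.5% in DNA methylation genes. They were 14.3% in cholesterol synthesis, 16.7% in the lipid list and 15.8% in glycolysis and hypoxia. Lists of other tissues named below held 9.09% (epidermal) to 17.6% (endoderm and trophoblast). Of 14 fibroblast markers Cd34, a sialomucin of progenitors, was higher, at 8.34 and 8.32 in MEF against 11.25 and 11.40 (log2 2.99, SE 0.21, adjusted p = 5.18e-08), and Lum and S100a4 were lower. Of 20 matrix proteases and their inhibitors Mmp13 was higher and Mmp19, Mmp23, Adamts1, Plau, Plat and Plaur were lower, and 3 were lower without the day 9 array or without the MEF M2 array. The call of Mmp13 was lost without the day 12 array or either MEF array and in fits of these groups or of the M2 arrays alone, and the gene is among the dimmest 25%, which 1 alternative drops. Among lists of metabolism, cholesterol synthesis had Fdps and Hsd17b7 lower, the lipid list Cebpd higher and Fabp4 and Scd1 lower, glycolysis and hypoxia Aldoc higher and Car9 and Vegfa lower, and the lysosome Ctsh lower. Spry4 was higher among immediate early genes, and Ifitm1 was higher and Usp18 lower among interferon genes. Dlk1 and Peg3 of the imprinted list and Uhrf1 and Hells of the DNA methylation list were lower. Other probe sets differed by 0.47 for Aldoc, 0.32 for Spry4, -0.41 for Uhrf1 and -2.08 to 0.01 for Fabp4. Among markers of other tissues, Dsc2, Tnnt1, Stmn2, Dab2 and Tfap2c were higher, and Sprr1a, Des, Acta1, Tubb3, S100b, Sox9, Tnmd and Gata6 were lower. Of these genes, Mmp19, Adamts1, Plau, Fdps, Hsd17b7, Scd1, Spry4, Peg3, Uhrf1, Sprr1a, Dab2 and Sox9 each lost the call when at least 1 of the 4 arrays was left out on its own.

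**Figure D4:**
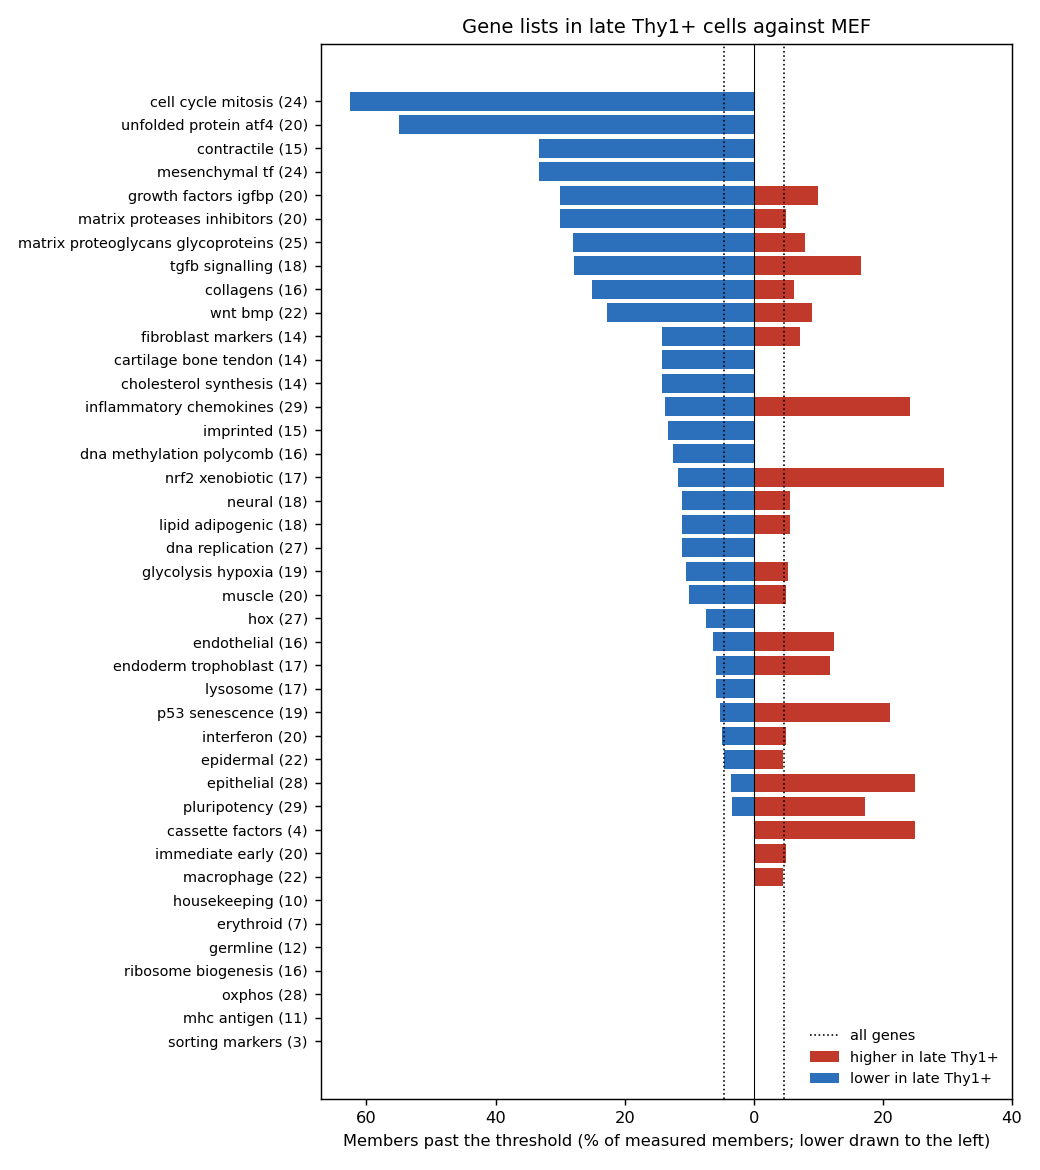
Share of measured members called (horizontal axis, %) in each of 41 gene lists (rows, with the number measured), higher in late Thy1+ cells to the right (red) and lower to the left (blue). Dotted lines mark the shares over all genes, 4.61% and 4.56%; the mitotic list, with 15 of 24 lower, and the stress list, with 11 of 20 lower, reach farthest.

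The late arrays were also compared with MEF one at a time, with the spread taken from the replicated groups. Day 9 differed in 1090 genes (9.23%; 4.78% higher, 4.45% lower) and day 12 in 1073 (9.09%; 4.47% higher, 4.62% lower). These comparisons share the MEF arrays. Set against each other, day 12 differed from day 9 in 49 genes (0.415%), of which 18 were higher (0.152%) and 31 lower (0.263%) on day 12, while 928 genes had an unadjusted p under 0.05 by limma. With no difference at all, a share of 0.05 of all genes would be expected under that unadjusted p. Mitotic genes were again among the genes called lower on day 12. Hmmr, a spindle protein, read 7.27 on day 9 and 5.30 on day 12 (log2 -1.97, SE 0.21, adjusted p = 0.000827), and 6 of 24 members of the mitotic list were called, all lower. The count depended on the arrays that gave the spread. It was larger in a fit that omitted the M2 array of day 6 Thy1+ cells, which stood apart in the Gapdh, Actb and 18S controls. It was also larger in the setting called M2 arrays alone, which drops the M3 arrays of MEF and Thy1+ cells only. There the day 6 M2 array is alone in its group and adds no spread, so these 2 settings overlap.

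Genes higher on day 12 were led by Hsd11b1, which regenerates active glucocorticoid, at 7.90 and 10.38 on days 9 and 12 (log2 2.48, adjusted p = 0.000827). It was also higher than in MEF, which read 5.73 and 5.98. The collagenase Mmp13 read 3.97 and 6.32 against 3.40 and 3.67 in MEF, so that its level on day 9 was near that of MEF. Cxcl1, a neutrophil chemokine, read 7.92 and 10.05 against 8.78 and 8.76. Day 12 was above and day 9 below MEF for this gene. Lin28a, an RNA-binding protein of pluripotent cells, read 3.69 and 5.31 against 3.96 and 3.91. Each late day had 1 array, so these are differences between arrays, and time and array cannot be told apart.

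Against Thy1+ cells of day 3, the late cells differed in 922 genes (7.81%), 517 higher (4.38%) and 405 lower (3.43%). Of the 25 matrix proteins 11 were higher late, 2 were lower and 12 were not called, with a median of 0.78, and of the 16 collagens 2 were higher and 0 lower. Eln, elastin, read 5.14 and 5.17 on day 3 and 9.67 and 10.13 late (26.8-fold higher, adjusted p = 6.51e-09), while MEF read 9.92 and 10.27. Egfl6, a secreted matrix protein, read 3.97 and 3.79 on day 3, 8.93 and 9.73 late, and 8.54 and 8.73 in MEF. In both genes the late and MEF arrays lay near each other, and the day 3 arrays lay far below. Cpxm2, a carboxypeptidase-like secreted protein, and Itgbl1 exceeded MEF as well, with late values of 10.30 and 11.13 against 7.34 and 7.41, and of 9.87 and 10.45 against 7.18 and 7.14. Sod3, Igfbp5, Aspn and Dkk2 completed the 8 genes most higher late than on day 3, by 15.2-fold to 24.4-fold.

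Mitotic genes were lower late than on day 3. All 24 were lower, with a median of -2.87, as were 24 of 27 replication genes. Bub1 read 9.51 and 9.73 on day 3 against 6.65 and 5.38 late (12.2-fold lower, adjusted p = 3.74e-07). Day 3 cells themselves stood above MEF in all 24, with a median of 1.77, where 10.7% of all genes were called (5.28% higher, 5.44% lower). Cxcl5, a neutrophil chemokine, read 10.40 and 9.72 on day 3 against 5.95 and 6.33 late (15.1-fold lower). Krt19, an epithelial keratin, read 12.00 and 11.97 on day 3 against 8.96 and 8.08 late, with MEF at 7.87 and 7.58. Cep55, Cenpe, Aspm, Pclaf and Ccnb2, all of the cell division programme, were the others of the 8 most lower.

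Across all genes, late Thy1+ cells lay 0.665 from MEF, as the root mean square log2 difference after subtraction of the error variance. Thy1+ cells lay 0.716 from MEF on day 3 and 0.738 on day 6. In a fit without the M2 array of day 6 Thy1+ cells, the values were 0.679 late, 0.728 on day 3 and 0.692 on day 6. The order of days 3 and 6 thus turned. In that fit days 9 and 12, taken singly, lay at 0.694 and 0.689, near day 6. In the main fit the values of days 9 and 12 were 0.671 and 0.666, and these days lay 0.123 from each other. Late and day 3 Thy1+ cells lay 0.579 apart. Late SSEA1+ cells of the same days lay 1.079 from MEF and differed from MEF in 2517 genes (21.3%; 10.1% higher, 11.2% lower). These distances have no test, and all are taken from the same MEF arrays.

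**Figure D5:**
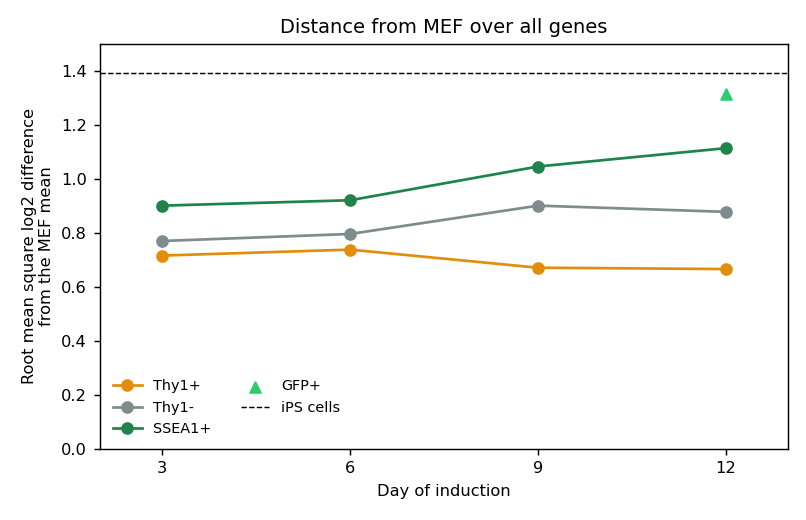
Root mean square log2 difference from the MEF mean over 11807 genes (vertical axis) by day of induction (horizontal axis) for Thy1+, Thy1- and SSEA1+ cells, with GFP+ cells of day 12 (triangle) and iPS cells (dashed line, 1.391). Thy1+ cells lie lowest on each day, between 0.666 and 0.738, while SSEA1+ cells reach 1.114 on day 12; the day 6 value of Thy1+ cells includes the array that stood apart in its controls.

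Late Thy1+ and late SSEA1+ cells were compared directly at the same days. They differed in 1924 genes (16.3%), with 1077 higher (9.12%) and 847 lower (7.17%) in Thy1+ cells. Of 14 fibroblast markers 11 were higher and 0 lower in Thy1+ cells, Thy1 itself by 2.97. Of 25 matrix proteins 22 were higher and 0 lower, with a median of 2.34. All 24 mitotic genes were lower in Thy1+ cells, with a median of -3.22, and 20 of 29 pluripotency genes were lower. Nanog stood 3.98 lower on the log2 scale in Thy1+ cells. A smaller share of the stress list than of these lists differed between the fractions, with 3 of 20 higher and 4 lower. That share was 35%, above the 16.3% of all genes. Its differences ran from -1.79 to 1.60, with a median of 0.04. Chac1 stood at -3.09 in late Thy1+ and at -3.11 in late SSEA1+ cells against the shared MEF arrays, with a difference of 0.02 between the fractions.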

How the data were processed

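Gene expression had been measured on 3′ arrays with biotin-labelled total RNA, extracted without DNase digestion, per the labels' protocols. The deposited values are log2 signals from RMA (no version), per the submitters' processing notes. Of 22716 probe sets, 18003 had 1 gene symbol in the array annotation, 287 several and 4426 none (90 controls included), with 0 symbols in need of an update. Each of 11807 genes was read from its brightest probe set by mean signal. The log2 values were used as deposited in limma 3.58.1 (R 4.3.3), with 24 arrays, 14 group means and 10 residual degrees of freedom, or 15 means when days were separate. P-values were adjusted by Benjamini-Hochberg over all genes, and a call needed an adjusted p under 0.05 and 2-fold. Data were simulated with independent normal noise of the fitted spread and no difference between the late days. There 96% of genes changed by 1.5 (log2) were recovered, with 4 false calls. Recovery in the real arrays was not tested. Of 831 names in 41 lists 719 were measured. Members and lists were chosen with earlier results of these data known. Genes named are the 15 (late against MEF) or 8 (other comparisons) largest calls in each direction and list members. Alternatives dropped the minimum fold or the dimmest 25% of genes. Others used quantile and median scaling, mean probe sets, a trended robust prior, a replicate block, these groups alone, M2 arrays alone or fewer arrays. For M2 arrays alone, the M3 arrays of MEF and Thy1+ cells were dropped and all other arrays stayed. Another table of 4 arrays was not used. Python 3.11.15, pandas 2.3.3, numpy 2.4.6 and matplotlib 3.10.9 made tables and figures.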

Additional observations from a re-analysis of the deposited data

Results flagged for a closer look

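The day 12 and day 9 Thy1+ arrays differed from each other, by a test of that difference in limma, in 27 of the genes that could be named, which are given here as log2 day 12 minus day 9. Among mitotic and cell division genes, Hmmr differed by -1.97, Aspm by -1.77, Shcbp1 by -1.72, Spc25 by -1.67, Racgap1 by -1.57, Birc5 by -1.54, Ccnb2 by -1.53, Kif23 by -1.42, Ccna2 by -1.29, Bub1 by -1.27 and Cdc20 by -1.02. The replication polymerase Pole differed by -1.05. The genes higher on day 12 included Mmp13 at 2.35, Cxcl1 at 2.13, Sparcl1 at 2.08, Htra3 at 1.72, Fgl2 at 1.61 and Fbln1 at 1.55. Hsd11b1 stood at 2.48, the melanocortin receptor Mc2r at 1.78, Lin28a at 1.62, Hoxa10 at 1.58 and Hoxa3 at 1.12. The neuroendocrine gene Scg5 differed by -2.40, D17H6S56E-5 by -1.85, the lipase Pla2g7 by -1.59 and Stmn2 by -1.08. Each day had 1 array, and the day 9 array also had the lower 18S signal; the part of that array difference in these values was not tested.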

How the results depend on the processing

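Of 3879 recomputed values for the 272 gene results, 3663 kept their direction and side of the threshold, 185 kept the direction and lost the call, 15 gained one and 16 changed sign. All that changed sign were differences between late Thy1+ cells and MEF that had not passed the test. Without the day 9 array they were Dcn (0.41), Eln (0.04), Krt18 (0.63) and Calr (0.06), and without the day 12 array Ogn (-0.07), Krt8 (-0.22), Cxcl1 (-0.86), Lin28a (-0.25) and Klf4 (-0.10). Klf4 was also at -0.06 with averaged probe sets, -0.01 with the replicate block and -0.04 with the M2 arrays alone, and Calr at 0.02 after quantile normalization and 0.06 with the M2 arrays alone. Leaving out a MEF array gave -0.04 to 0.08 for Klf4 and -0.13 to 0.06 for Calr. With no minimum fold, 2511 genes passed between late Thy1+ cells and MEF, 1880 on day 9, 1996 on day 12, 2374 against day 3 Thy1+ cells, 5581 between late SSEA1+ cells and MEF and 4170 between the late fractions. Leaving out 1 array gave 990 to 1090 genes between late Thy1+ cells and MEF. Between day 12 and day 9, 114 genes passed with the M2 arrays alone and 136 without the day 6 Thy1+ M2 array; leaving out an array or fitting these groups alone was not possible there. With the replicate name as a block, 1108 genes passed between late Thy1+ cells and MEF; the names do not pair the arrays of these groups, and deviations of same-named arrays from their group means correlated between -0.207 and 0.214 over 21 pairs. The distance from MEF was 0.713 without the dimmest 25% of genes and 0.637 with the mean of all probe sets, and 0.679 without the day 6 Thy1+ M2 array, an alternative chosen after seeing the data. Without that array 1098 genes passed between late Thy1+ cells and MEF. The range given above for leaving out 1 array covers only the arrays of these groups. For the differences that moved, the cause was not tested. Scaling moved the median over all genes from 0.044 to 0.002 (quantile) or 0.059 (medians). Losses that reach the dim end of the scale are limited in size by it.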

Other observations

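Genes of 2 systems outside the lists were prominent, and both sets were written after the values were seen, so their counts describe these arrays and support no test. Of 15 measured complement genes 7 were higher in late Thy1+ cells and 1 was lower, beside 4.61% and 4.56% of all genes. C4b read 5.40 and 5.59 in MEF against 8.28 and 9.72 (log2 3.50, SE 0.31, adjusted p = 6.44e-07 by limma), Cfb, complement factor B, read 4.87 and 4.88 against 8.06 and 8.05, and C1ra and C1s1, proteases of the classical pathway, were higher by 3.01 and 2.73. Probe sets of C4b, C1ra and C1s1 may also read close copies of these genes. The inhibitor Serping1 was higher by 1.65 and the protease Masp1 lower by 1.53. Day 3 Thy1+ cells already had 5 of the 15 higher and 2 lower than in MEF, beside 5.28% and 5.44% of all genes. Late SSEA1+ cells had 1 complement gene higher and 2 lower than in MEF, beside 10.1% and 11.2% of all genes. In late Thy1+ cells 8 were higher than in late SSEA1+ cells, beside 9.12% of all genes. The acute phase genes Serpina3n and Lbp were higher by 4.32 and 3.65.

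Of 15 measured genes of the circadian clock 8 were higher and 1 lower, beside 4.61% and 4.56% of all genes. Dbp, a clock output factor, read 6.47 and 6.69 in MEF against 9.08 and 8.99 (log2 2.45, SE 0.15, adjusted p = 1.48e-08), and Per3 read 7.28 and 7.51 against 10.00 and 9.91. Tef, Hlf, Per2, Nr1d2, Rora and Bhlhe40 were higher by 1.40, 1.11, 1.45, 1.24, 1.12 and 1.63. Arntl, the activator of this loop, read 8.62 and 8.72 against 7.88 and 7.45, lower by 1.01 (adjusted p = 0.0414). Against MEF, 1 clock gene was higher and 0 lower in day 3 Thy1+ cells, beside 5.28% and 5.44% of all genes. In late SSEA1+ cells 4 were higher and 2 lower, beside 10.1% and 11.2% of all genes. The hour of harvest is not in the labels.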
